A study of Sus scrofa with 20 samples.

Results

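Genes of glucose production and fat synthesis were followed in testis and liver of boars with low and high androstenone. Of 9 genes listed for both pathways, 5 were paired with a reference ID of the count tables: PCK1 (NM_001123158.1) and FBP1 (NM_213979.1) for gluconeogenesis, and ACACA (NM_001114269.1), SCD (NM_213781.1) and ME1 (XM_001924333.2) for fat synthesis. The other listed genes, PCK2, PPARGC1A, FASN and SREBF1, are not analysed here. The tables hold 21755 distinct reference IDs, of which 6654 were paired with a symbol.

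The animals were uncastrated boars, 116 days old, of a Duroc x F2 cross, in which the F2 parents came from Leicoma x German Landrace F1 animals crossed with Large White. No treatment was given. The groups were set by a measured trait, the level of androstenone in fat, so that 5 boars with low and 5 with high androstenone gave 1 library per tissue each, 20 in all. Androstenone is a steroid made in the testis, cleared by the liver and stored in fat, where it contributes to boar taint. Tissue was frozen directly after slaughter, and neither the labels nor the study's methods say when the boars had last eaten. Replicate numbers are given per group, and the labels do not say which testis and which liver came from 1 boar.

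Gluconeogenesis makes glucose from lactate, amino acids and glycerol when no sugar arrives from the gut. The cytosolic phosphoenolpyruvate carboxykinase encoded by PCK1 carries its early committed step, and its transcription is raised by glucagon and glucocorticoids in fasting and lowered by insulin after a meal. FBP1, the fructose bisphosphatase of liver and kidney, acts further along the same route. Fat synthesis runs the other way: ACACA (acetyl-CoA carboxylase alpha) makes malonyl-CoA, the building block of new fatty acids, SCD (stearoyl-CoA desaturase) places a double bond into them, and ME1 (cytosolic malic enzyme) supplies NADPH. In pigs, adipose tissue rather than liver is the main site of new fatty acid synthesis.

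Total counts ranged from 6161397 to 15975386 in the 10 testis libraries and from 5796973 to 26783002 in the 10 liver libraries, so that 3 counts, taken as the level not separable from 0, stood for 0.188 to 0.487 and 0.112 to 0.518 counts per 1000000 (CPM). These limits cover counting error only. The tissues carried their labels: 6 hepatocyte markers summed to 93040 to 266500 CPM in liver and 37.0 to 123.4 CPM in testis. The sums of 4 germ cell markers were 0.747 to 7.03 CPM in liver and 989 to 3864 CPM in testis. Those of 4 Leydig cell markers were 1.46 to 23.9 and 694 to 3406 CPM. Among these Leydig cell markers HSD3B1 went the other way, with a mean of 6.02 CPM in liver and 3.15 CPM in testis. The library of high androstenone liver 3 stood apart from the others, with the highest summed level of 4 bile duct markers, 8663 CPM, of which KRT8 alone made 8651 CPM. This sum is thus a level of KRT8 and does not stand for bile duct cells. Among these markers EPCAM and SOX9 were lower in liver than in testis, and KRT19 and KRT8 were higher. These are samples of whole tissue, in which fewer cells of a type and less RNA per cell cannot be told apart.

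For 3 of the 5 genes the tables hold a further reference ID, without a symbol in the tables used here, whose counts followed those of the named ID within sampling noise. PCK1 had 13434 counts over the 20 libraries and its match XM_001924102.2 had 13482 (chi-square test over 20 libraries, p = 0.561), ACACA had 1426 and EU168399.1 had 1410 (p = 0.676), and SCD had 6089 and AY487829.1 had 6039 (p = 0.524). How reads fitting several reference sequences were counted is not given in the sources used here, so the absolute levels of these 3 genes are uncertain. With both IDs summed, which was tried after seeing the data, no call of the 5 genes changed in any comparison. FBP1 and ME1 had no such match. The matches were picked from all IDs by a high correlation, a similar total and a chi-square p that was not low. The totals and p-values given here are thus part of the search and no separate evidence, and partial matches were not sought.

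**Figure D1:**
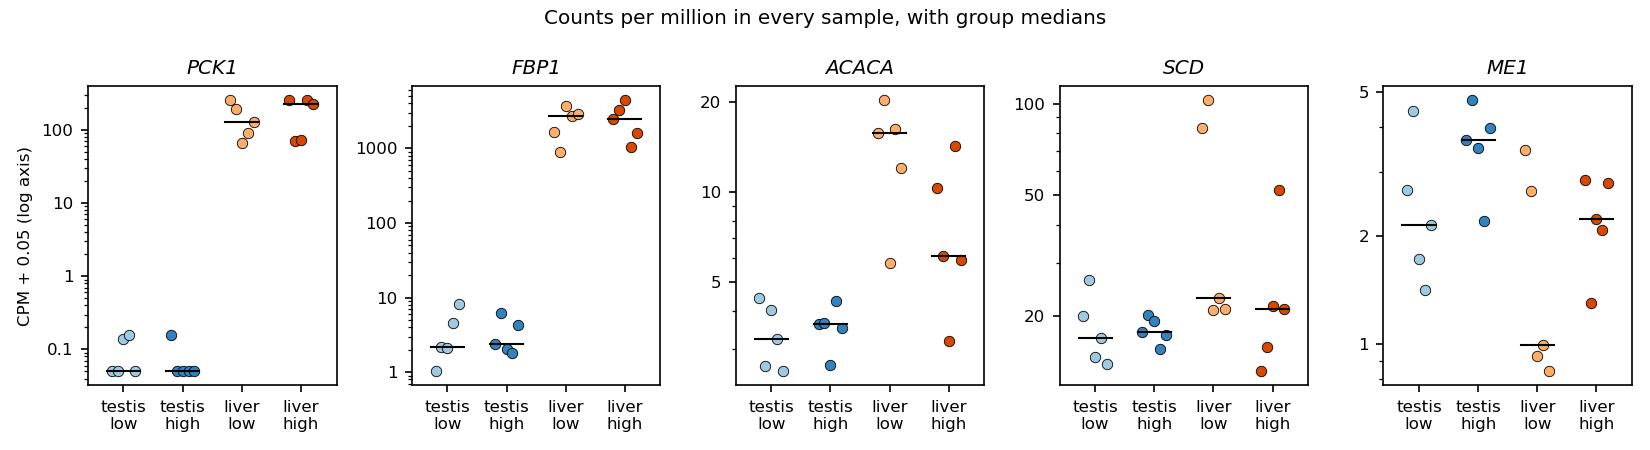
Counts per 1000000 (CPM) in each of the 20 libraries for the 5 genes (y axis, log scale, with 0.05 added so that values of 0 can be drawn), by tissue and androstenone group (x axis); each point is 1 library and each bar a group median. PCK1 and FBP1 separate liver from testis in every library, SCD and ME1 overlap between the tissues, and the low and high groups overlap for every gene within each tissue.

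The first comparison asked how the tissues differ. PCK1 and FBP1 were far higher in liver, ACACA and SCD were moderately higher, and ME1 did not pass the test. The edgeR quasi-likelihood test was used. Both tissues came from the same boars, but the labels do not pair the libraries, so the test treated them as independent. An ID counted as called where its fold change was 1.5 or more with an adjusted p below 0.05. With this rule 4 of the 5 genes were called higher in liver and 0 lower, while of all 19065 IDs tested 32.2% were called higher, 43.5% lower and 75.7% in either direction, with a median log2 fold change of -0.31. Most IDs tested differed between the tissues by this rule, so that the call alone says little of these genes.

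PCK1 was measured at 255.7, 191.1, 65.7, 89.6 and 129.3 CPM in the low androstenone livers and at 260.1, 70.2, 73.7, 254.0 and 224.7 CPM in the high androstenone livers. In testis, 7 of 10 libraries held no PCK1 read and the others held 2 counts each, 6 counts in all, under the level of 3 counts per library. Liver averaged 161 ± 84.0 CPM (SD, n = 10) and was 3970 times the pooled testis level, with an exact 95% counting interval of 1824 to 10818 from the 6 testis counts. The fitted log2 fold change was 11.68 (SE 0.51, adjusted p = 1.28e-16), a value that leans on those few reads, and it was 12.55 with the matching ID summed in.

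FBP1 read 1649.5, 898.1, 3646.5, 2695.7 and 2896.4 CPM in the low androstenone livers, and 2441.0, 3272.7, 4511.4, 1029.9 and 1630.7 CPM in the high androstenone livers. Testis libraries held 0.973, 2.14, 2.07, 4.49 and 8.04 CPM in the low group and 2.34, 6.09, 2.01, 1.78 and 4.22 CPM in the high group, all from at least 10 counts. The tissues did not overlap, and the log2 fold change was 9.47 (SE 0.49, adjusted p = 3.45e-15). FBP1 was thus present at a low level in every testis library, unlike PCK1.

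ACACA stood at 15.6, 20.3, 5.72, 16.1 and 11.99 CPM in the low androstenone livers and at 10.2, 6.04, 3.12, 14.1 and 5.87 CPM in the high androstenone livers. In testis it ranged narrowly, with 4.38, 2.56, 3.97, 3.17 and 2.47 CPM in the low group and 3.57, 3.59, 2.59, 4.28 and 3.46 CPM in the high group. All livers but high androstenone liver 3 lay above every testis. The log2 fold change was 1.61 (SE 0.25, adjusted p = 2.12e-06). The spread was also unequal: the highest liver was 6.49 times the lowest, the highest testis 1.77 times the lowest.

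SCD reached 83.3 and 103.0 CPM in low androstenone livers 1 and 2 and 51.8 CPM in high androstenone liver 4. The remaining low androstenone livers held 21.0, 22.9 and 21.2 CPM and the remaining high androstenone livers 13.1, 15.8, 21.6 and 21.1 CPM. Testis held 19.9, 26.3, 14.7, 16.9 and 13.9 CPM in the low group and 17.7, 20.1, 19.3, 15.6 and 17.3 CPM in the high group and so overlapped the other 7 livers. The log2 fold change of 0.96 (SE 0.29, adjusted p = 0.0045) was 0.73 without high androstenone liver 4, still called.

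ME1 was the least counted of the 5 genes, with 5 to 35 counts in a liver and 18 to 109 in a testis. Its levels were 3.41, 2.62, 0.880, 0.947 and 0.792 CPM in the low and 2.80, 1.25, 2.18, 2.02 and 2.75 CPM in the high androstenone livers, against 2.63, 4.38, 1.68, 1.37 and 2.09 CPM and 3.62, 4.71, 3.45, 2.14 and 3.94 CPM in testis. The tissues overlapped, and the log2 fold change of -0.55 (SE 0.28, adjusted p = 0.077) did not pass. It passed, as lower in liver, with median-ratio scaling (-0.60, adjusted p = 0.0401), with DESeq2 (-0.60, adjusted p = 0.0361) and without low androstenone liver 1 (-0.73, adjusted p = 0.0189), low androstenone liver 2 (-0.65, adjusted p = 0.0466) or low androstenone testis 4 (-0.62, adjusted p = 0.0491).

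These differences depend on the scaling, since the TMM factors were 0.515 to 0.876 in liver and 1.27 to 1.45 in testis. With total counts alone the median log2 fold change of all IDs moved from -0.31 to -1.28, the counts of IDs called higher and lower from 6143 and 8293 to 3577 and 11348, and SCD to -0.04 (not called). ACACA stayed called higher at 0.67 and ME1 was called lower at -1.53. Upper quartile scaling moved the other way, with a median of 0.04 and 7299 IDs higher and 7290 lower. A change of scaling moves all IDs of a library alike, so distances from the median of all IDs stay nearly the same by construction and are given as positions only: SCD lay 1.25 to 1.27 above that median, ACACA 1.92 to 1.95 above it, FBP1 9.77 to 9.79 and PCK1 11.97 to 12.11 above it, and ME1 0.24 to 0.25 below it.

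**Figure D2:**
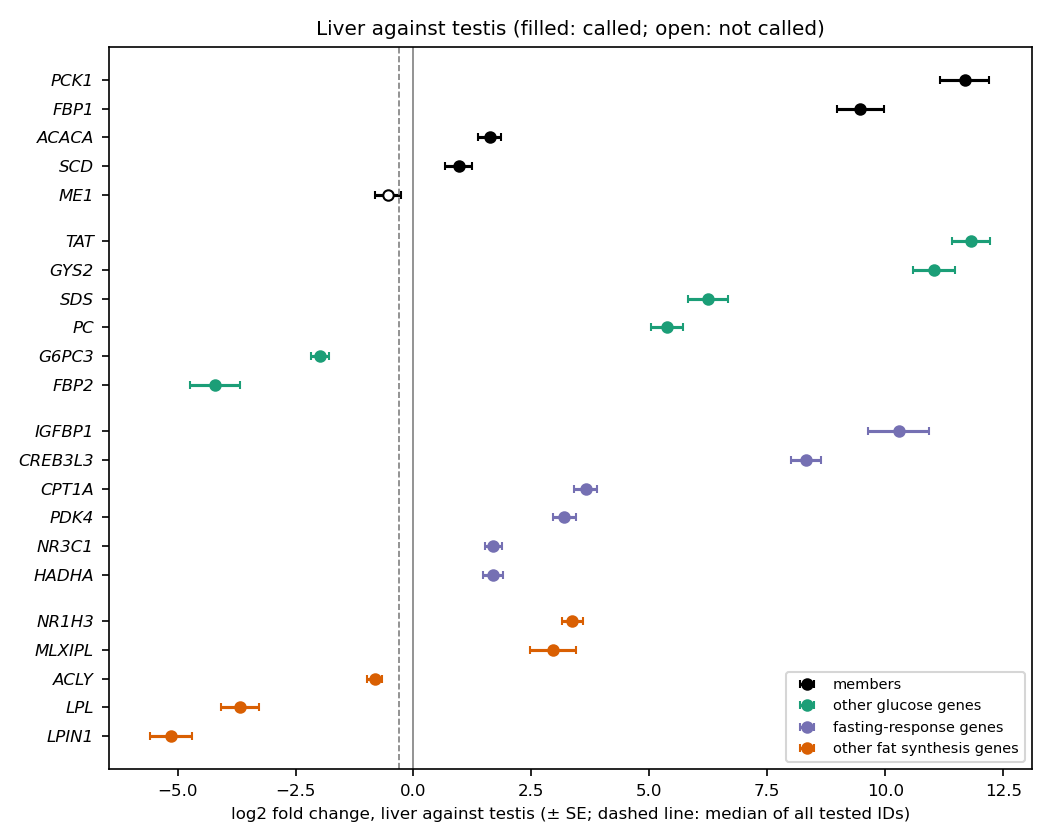
log2 fold change of liver against testis (x axis, error bars SE, 10 against 10 libraries) for the 5 genes and the genes of the glucose, fasting and fat synthesis lists that the naming rule selected (y axis); filled points were called, open points were not, and the dashed line is the median of all IDs tested. PCK1 at 11.68 and FBP1 at 9.47 lie near TAT at 11.82 and IGFBP1 at 10.28, while ACACA at 1.61, SCD at 0.96 and ME1 at -0.55 lie nearer to the median of -0.31.

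Of 13 other genes of glucose metabolism tested, 9 were called higher in liver, 2 lower and 2 not, beside 32.2% higher and 43.5% lower over all IDs, with a median log2 fold change of 2.38. TAT, which breaks down tyrosine for glucose production, was higher by 11.82 on the log2 scale (SE 0.40), GYS2, the glycogen synthase of liver, by 11.04 (SE 0.44), SDS (serine dehydratase) by 6.24 (SE 0.42) and PC (pyruvate carboxylase), the step before PCK1, by 5.37 (SE 0.34). TAT and GYS2 had 24 and 6 counts over all testis libraries, so their fitted changes rest on few reads. The 2 genes lower in liver are relatives of liver enzymes: FBP2, the muscle form of fructose bisphosphatase, at -4.20 (SE 0.53), and G6PC3, the widely expressed glucose phosphatase, at -1.98 (SE 0.19).

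All 16 tested genes of the fasting list were called higher in liver, beside 32.2% of all IDs, with a median log2 fold change of 3.98. IGFBP1, a binding protein of insulin-like growth factors that insulin represses, and CREB3L3, a fasting-responsive transcription factor, changed most, by 10.28 (SE 0.64, from 4 counts in testis) and 8.32 (SE 0.32). CPT1A, which carries fatty acids into mitochondria, changed by 3.65 (SE 0.24), and PDK4, which blocks entry of pyruvate into oxidation, by 3.20 (SE 0.24). HADHA (fatty acid oxidation) and NR3C1 (the glucocorticoid receptor) changed least, by 1.68 (SE 0.22) and 1.69 (SE 0.19).

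The fat synthesis list was divided. Of 17 genes tested, 10 were called higher in liver, 5 lower and 2 not, beside the same 32.2% and 43.5%, and the median log2 fold change of 0.61 was the lowest of the 3 lists. NR1H3, a sterol-sensing factor, was higher by 3.36 (SE 0.22), and MLXIPL, the carbohydrate-responsive factor, by 2.96 (SE 0.49), the latter from only 72 counts over the livers and 15 over the testes. ACLY, which makes cytosolic acetyl-CoA for ACACA, was lower in liver at -0.82 (SE 0.16, adjusted p = 7.06e-05), with 7.85 to 21.2 CPM in the livers and 21.4 to 38.2 CPM in the testes. It stayed lower with upper quartile scaling, where its change of -0.47 was under the fold threshold. LPIN1, a phosphatidate phosphatase, and LPL, the lipoprotein lipase, were lowest at -5.14 (SE 0.44) and -3.69 (SE 0.40). Of the adipocyte markers LEP, LIPE, PLIN1 and CIDEC, the first 2 were lower in liver and the others higher.

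The next comparison asked whether boars with high and low androstenone differ in these pathways. In liver 0 of the 5 genes were called, against 0% of 15855 IDs tested. At an unadjusted p under 0.05 there were 465 IDs, none of them among the 5 genes, and DESeq2 also called 0 IDs. The lowest adjusted p of any ID was 0.12 with DESeq2 and 0.051 with a joint edgeR fit over all 20 samples. ACACA averaged 13.9 ± 5.45 CPM in the low and 7.88 ± 4.33 CPM in the high group (SD, n = 5 each), with a log2 fold change of -0.74 (SE 0.41, adjusted p = 0.9999, exact permutation p = 0.0952). SCD averaged 50.3 ± 39.8 and 24.7 ± 15.6 CPM, with a log2 fold change of -0.91 (SE 0.51, adjusted p = 0.9999, exact permutation p = 0.206). Both means were lower in the high group, and for both genes the groups overlapped and neither test passed.

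The SCD difference rested on single livers: the log2 fold change was -0.48 without low androstenone liver 2 and -1.39 without high androstenone liver 4. The ACACA difference ranged from -0.52 without high androstenone liver 3 to -1.08 without high androstenone liver 4. In the permutation test of ACACA, p was 0.0397 without low androstenone liver 3, the 1 liver left out of 10 that gave a p under 0.05 in that tissue.

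PCK1 averaged 146 ± 77.4 CPM in the low and 177 ± 96.4 CPM in the high androstenone livers (SD, n = 5 each), a log2 fold change of 0.38 (SE 0.45, exact permutation p = 0.706). FBP1 averaged 2357 ± 1084 and 2577 ± 1372 CPM, a log2 fold change of 0.15 (SE 0.45, exact permutation p = 0.833), and its sign turned when single livers were left out, between -0.12 and 0.41. ME1 averaged 1.73 ± 1.20 and 2.20 ± 0.633 CPM, a log2 fold change of 0.41 (SE 0.44, exact permutation p = 0.325). Differences of these sizes were not detectable against the spread between 5 boars.

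In testis 0 of the 4 genes tested were called, against 0% of 18340 IDs, with 1741 IDs at an unadjusted p under 0.05. DESeq2 called 52 IDs there, none of them among these genes. ME1 averaged 2.43 ± 1.19 CPM in the low and 3.57 ± 0.935 CPM in the high group (SD, n = 5 each), a log2 fold change of 0.59 (SE 0.31, adjusted p = 0.557, exact permutation p = 0.111), and the exact permutation p was 0.0238 without low androstenone testis 2. FBP1, ACACA and SCD had log2 fold changes of -0.12 (SE 0.47), 0.05 (SE 0.24) and -0.04 (SE 0.19), with exact permutation p of 0.937, 0.667 and 0.968. PCK1 was not tested in testis, where it had 6 counts. The permutation test was run 9 times in both tissues, gave no p under 0.05 with all samples, and allows none below 0.00794 with 5 against 5.

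Whether the androstenone difference was unlike in the tissues was tested as an interaction. The interaction of tissue and androstenone group was called for 0 of the 5 genes and for 0% of 19065 IDs, with 890 IDs at an unadjusted p under 0.05 and 2 called by DESeq2. The differences in log2 fold change, liver minus testis, were -0.92 (SE 0.49) for ACACA, -1.02 (SE 0.58) for SCD, 0.23 (SE 0.70) for FBP1 and -0.29 (SE 0.56) for ME1. No value is given for PCK1, which had 6 counts in testis.

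The further genes of the 3 lists gave no call in either tissue with edgeR. In liver, unadjusted p-values below 0.05 were obtained by 1 of 13 glucose genes, 3 of 16 fasting genes and 3 of 17 fat synthesis genes, beside 465 of 15855 over all IDs, with median log2 fold changes over each list of -0.04, -0.06 and -0.15 against 0.01 over all IDs. The glucose gene was SDS at 2.11 (SE 0.59). The study, which used DESeq, called SDS in these livers, and its log fold change was also positive and of similar size. The fasting genes were IGFBP1 at 1.43 (SE 0.62), ACADM at 0.89 (SE 0.34) and HNF4A at -0.50 (SE 0.23). The 3 fat synthesis genes were DGAT2 at -1.36 (SE 0.39), FADS1 at -1.26 (SE 0.45) and FADS2 at -1.81 (SE 0.77), which make triglyceride and desaturate fatty acids, and each of these 7 genes had an adjusted p of 0.9999. The FADS2 medians were close, at 1.81 CPM in the low and 1.46 CPM in the high androstenone livers, with up to 14.6 CPM in the low group. In the fat synthesis list 13 of 17 genes had a negative and 4 a positive log2 fold change, counts that include values near 0. In testis the corresponding counts at an unadjusted p under 0.05 were 2 of 11, 0 of 14 and 4 of 17, beside 1741 of 18340 over all IDs.

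**Figure D3:**
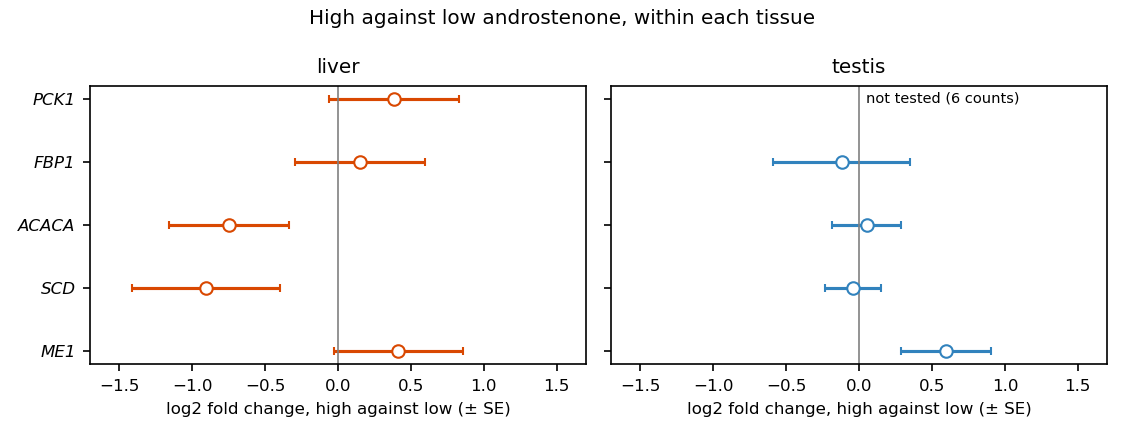
log2 fold change of high against low androstenone (x axis, error bars SE, 5 against 5 libraries) for the 5 genes (y axis) in liver and in testis; open points were not called. ACACA at -0.74 and SCD at -0.91 lie lowest in liver and near 0 in testis, a contrast for which the interaction was not called, and PCK1 was not tested in testis.

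The last comparison asked whether the livers differ as fasted and fed livers would. No label gives the time of the last meal, so the livers were not divided, and their levels were set side by side. PCK1 spanned a 3.96-fold range. High androstenone livers 1, 4 and 5 and low androstenone livers 1 and 2 held 191.1 to 260.1 CPM. The others followed at 129.3, 89.6, 73.7, 70.2 and 65.7 CPM. FBP1 spanned a 5.02-fold range in a largely opposite order. Its lowest levels, 898.1 and 1029.9 CPM, were in low androstenone liver 2 and high androstenone liver 4, and its highest, 4511.4 CPM, in high androstenone liver 3. Low androstenone liver 2, with the least FBP1 and PCK1 at 191.1 CPM, had the most of the fat synthesis genes ACACA and SCD.

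Over the 10 livers, log2(CPM + 0.5) of PCK1 and FBP1 ran in opposite directions (Pearson's r = -0.778, permutation p = 0.0109, adjusted p = 0.054; Spearman's rho = -0.806, permutation p = 0.00728, adjusted p = 0.0364). FBP1 also ran opposite to ACACA (r = -0.733, permutation p = 0.0162, adjusted p = 0.054; rho = -0.806, permutation p = 0.00681, adjusted p = 0.0364) and to SCD (r = -0.820, permutation p = 0.00521, adjusted p = 0.0521; rho = -0.685, permutation p = 0.0345, adjusted p = 0.0902). All 10 pairs of the 5 genes were computed and the adjustment was over these 10. No pair passed by Pearson's r, and the 2 that passed by Spearman's rho, both with FBP1, no longer did with median-ratio scaling, total counts alone or scaling factors set over all 20 samples. Each of these 2 calls was also lost in 7 of the 10 fits that left out 1 liver, and no pair passed by rho in 6 of them.

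The 7 other pairs did not pass by either measure. The r of PCK1 was 0.725 with ME1 (permutation p = 0.0268, adjusted p = 0.067; rho = 0.661, adjusted permutation p = 0.0902), 0.531 with ACACA (permutation p = 0.113, adjusted p = 0.161; rho = 0.515) and 0.434 with SCD (permutation p = 0.199, adjusted p = 0.249; rho = 0.236). ACACA and SCD had an r of 0.608 (permutation p = 0.0603, adjusted p = 0.121; rho = 0.661). FBP1 and ME1 had an r of -0.566 (permutation p = 0.0926, adjusted p = 0.154), SCD and ME1 of 0.407 (permutation p = 0.249, adjusted p = 0.277) and ACACA and ME1 of 0.053 (permutation p = 0.886, adjusted p = 0.886).

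Several of the relations leaned on few livers. Without the 2 livers farthest from the median of the first gene, r fell in size to -0.65 for PCK1 and FBP1. It also fell to -0.60 for FBP1 and ACACA, to -0.57 for FBP1 and SCD and to 0.17 for PCK1 and ACACA. In size it rose to 0.81 for PCK1 and ME1, to 0.68 for ACACA and SCD and to -0.61 for FBP1 and ME1. SCD in particular had 3 livers at 51.8 to 103.0 CPM and 7 at 13.1 to 22.9 CPM, and its relation to FBP1 rests on those 3. Without high androstenone liver 3, r was -0.730 for PCK1 and FBP1 and -0.652 for FBP1 and ACACA. None of 10 relations of the 5 genes to the livers' total counts or scaling factors passed the permutation test (each adjusted p = 0.9).

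**Figure D4:**
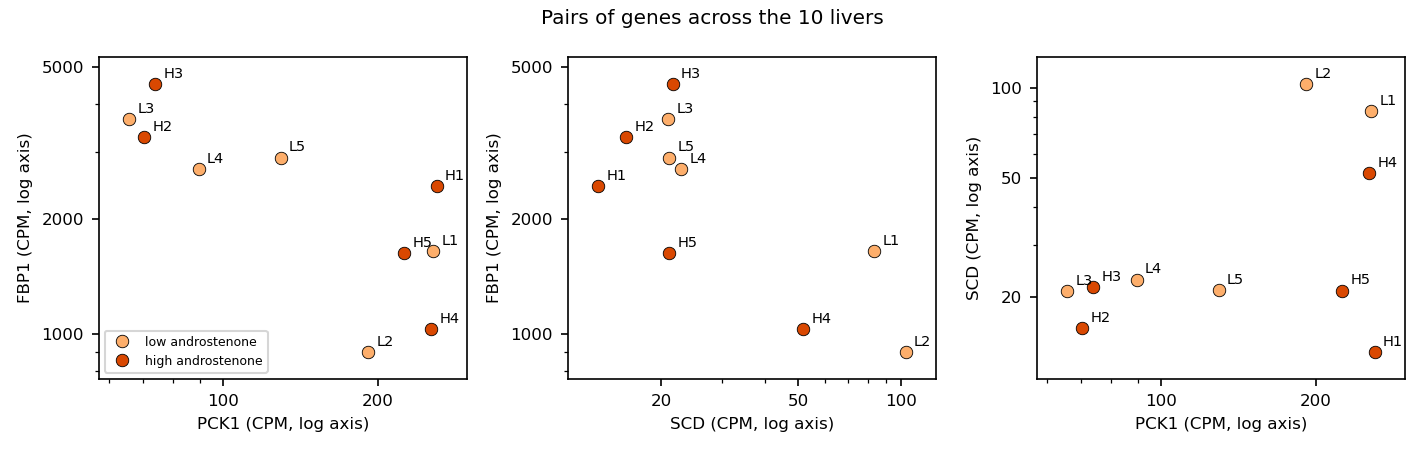
Levels of pairs of genes in the 10 livers (both axes in CPM, log scale), with each point labelled by group (L low, H high androstenone) and replicate. FBP1 tends to be lower where PCK1 and SCD are higher, with r of -0.778 and -0.820, neither of which passed after adjustment. These r used scaling factors set over the 10 livers, and the points use factors set over all 20 samples. SCD stands apart in L1, L2 and H4, while low and high androstenone livers are mixed along each axis.

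Relations of this size to 1 of the 5 genes were also found among other genes of these livers, in shares that depend on the gene taken as the base. Of 2778 IDs with a symbol and at least 5 CPM on average in liver, 7.38% had an r with PCK1 at least as far below 0 as FBP1, and 5.76% had an r with FBP1 at least as far below 0 as SCD. Taken from the other gene of each pair, the shares were 8.39% for FBP1 with PCK1 and 1.48% for SCD with FBP1, and for PCK1 and ME1 they were 7.96% from PCK1 and 2.12% from ME1. The first principal component of the livers took 51.3% of the variance of 7342 IDs, and the r with it, given without a test, was 0.828 for PCK1, 0.760 for ACACA, 0.701 for SCD, 0.564 for ME1 and -0.925 for FBP1. High androstenone livers 4 and 3 lay at its ends, at 0.48 and -0.54. In the study's read counts, mapped reads outnumbered unmapped reads in high androstenone livers 2 and 3 and low androstenone livers 3 and 5 only. These livers, taken in label order, had the lowest values on the component, -0.54 to -0.22. For high androstenone liver 3, however, the percentages printed by the study go against its read counts and put unmapped reads in the majority. A relation of the axis or of the 5 genes to the share of mapped reads was not tested. What sets this axis, and its part in the relations of the 5 genes, was also not tested.

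The genes most like FBP1 over the 10 livers were MED8, CIDEC, COPE, YIF1A and ARL2, with an r of 0.980 to 0.964. Among them CIDEC, a lipid droplet protein also used here as an adipocyte marker, was at 5.23 CPM in low androstenone liver 2 and 7.41 CPM in high androstenone liver 4, the livers with the least FBP1 and high SCD, and at 58.7 CPM in high androstenone liver 3. The adipocyte markers LEP and LIPE were at most 0.213 and 0.532 CPM in the livers and PLIN1 at most 1.80 CPM, and the 4 markers summed to 5.83 to 59.2 CPM, nearly all of it CIDEC. PCK1 was most like RPP30 (r = 0.970), WHAMM (0.955), ZMYND11 (0.941), HSD17B8 (0.921) and SPR (0.916). ACACA was most like MTR (0.925) and ACSS2 (0.906), which makes acetyl-CoA from acetate, and SCD was most like CSF1R (0.913). The likeness of FBP1, ACACA and SCD was looked up after the data were seen.

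The fasting genes IGFBP1, PDK4 and CPT1A were ordered differently from PCK1 in these livers, with no relation that passed. IGFBP1 was lowest in low androstenone liver 3, at 2.93 CPM, and highest in high androstenone liver 3, at 177.9 CPM, both livers with little PCK1, and its r with PCK1 was 0.046 (permutation p = 0.903). This r was -0.51 without low androstenone liver 3 and 0.38 without high androstenone liver 3. PDK4 was highest in low androstenone liver 5, at 248.8 CPM, and in low androstenone liver 1, at 218.0 CPM, with an r to PCK1 of -0.12 (permutation p = 0.738). CPT1A was 222.0 to 691.6 CPM, with its lowest level in high androstenone liver 4, and its r with PCK1 was -0.26 (permutation p = 0.446).

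These were 3 of 7 listed genes set against the 5 genes, 35 relations in all, chosen after the data were seen, and none passed after adjustment. The lowest adjusted p was 0.0851, for the rho of PCK1 and ACLY (-0.867, permutation p = 0.00243, r = -0.595). PCK1 and FBP1 ran largely opposite in these livers, so hardly any liver could be extreme in the same direction for both. Their joint order therefore cannot tell fasted from fed livers. High androstenone liver 4 had PCK1 at 254.0 CPM but the lowest CPT1A. Low androstenone liver 1 had PCK1 at 255.7 CPM and the highest CPT1A together with SCD at 83.3 CPM.

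**Figure D5:**
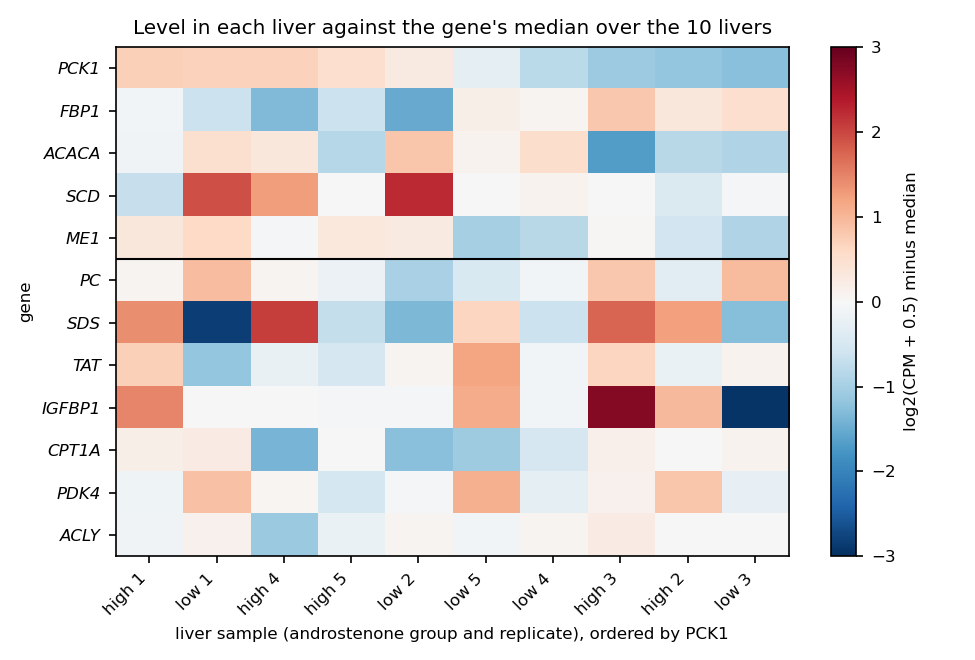
Level of each gene (rows) in each of the 10 livers (columns, ordered from the highest to the lowest PCK1), as the difference of log2(CPM + 0.5) from the gene's median over the livers (colour scale from -3 to 3; the line separates the 5 genes from 7 genes of the other lists). FBP1 is mostly reversed against PCK1, and IGFBP1, PDK4 and CPT1A follow no gradient along the columns. Their r to PCK1, with scaling factors set over the 10 livers, was 0.046, -0.12 and -0.26.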

How the data were processed

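RNA-Seq was done by the authors on total RNA of testis and liver (SMART cDNA, Illumina mRNA-Seq libraries, single reads on HiSeq, 1 lane per sample). Per the labels and methods, reads were filtered with CASAVA 1.7 and aligned with BWA to RefSeq mRNA and UniGene sequences of Sscrofa 9.2. The authors deposited raw counts per reference ID for each sample. The counting rule and the treatment of multiply matching reads are not given in the sources used here, and the library protocol as described marks no strand. Each sample lists 21785 lines for 21755 IDs, since 10 IDs are listed 4 times, and these were used once. Symbols came from a RefSeq gene table of Sscrofa11.1, whose coordinates were not used.

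Groups came from the sample titles. Counts were tested with edgeR 4.0.16 in R 4.3.3 (TMM, IDs with at least 10 counts summed, quasi-likelihood test, Benjamini-Hochberg over all IDs, fold change of at least 1.5, no fold threshold for the interaction). DESeq2 1.42.0 was an alternative. The tissue contrast used all 20 samples and high against low used the 10 samples of a tissue. Printed CPM used TMM factors over 20 samples. Exact two-sided permutation tests (252 regroupings) and two-sided correlation tests over the livers (100000 resamples, TMM over 10 livers) used log2(CPM + 0.5). Counts were simulated with 200 changed IDs at a log2 fold change of 2. The test recovered 75.5% of them among 15855 IDs in liver, 95% among 18340 in testis and 98% among 19065 in the tissue contrast. In each of these simulations 10 unchanged IDs were also called. The rates were not split by count level, and no smaller change was simulated. They therefore do not tell how often a change like that of SCD between androstenone groups in liver, -0.91, would be found. No libraries of a group were alike within sampling noise. The samples of a group are different boars, as far as the labels say.

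The genes, lists and tests were chosen with earlier results of these data known, so no list is independent evidence. Named genes were the matched members, fixed fasting and feeding genes detected in liver, the 2 highest and 2 lowest called changes per list between tissues, any listed gene called between androstenone groups, and the 5 IDs most like PCK1. The same 5 for FASN were not analysed, and some genes of the rule are not reported here. Alternatives were other scalings, filters and fold thresholds, IDs of a symbol summed, DESeq2, a replicate block, a joint fit, another pseudocount and leaving out each sample.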

Additional observations from a re-analysis of the deposited data

Results flagged for a closer look

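Each group of 5 samples was searched for a sample whose gap to its nearest neighbour exceeded 0.71 of the group's range, over 22 named genes and 80 groups, and 10 samples were found. Chance gives about 1 such group in 20 where values are normally distributed, which CPM need not be. The groups share libraries and so are not independent. Among the 5 genes there was 1: SCD at 51.8 CPM in high androstenone liver 4, against 21.6 CPM in the next liver of the group. In the same liver CPT1A was at 222.0 CPM, the next at 584.3 CPM, and LPIN1 at 6.96 CPM, the next at 1.64 CPM. High androstenone liver 3, which also had the highest FBP1 and the lowest ACACA, was apart for PC at 367.1 CPM (next 222.4 CPM) and CREB3L3 at 754.1 CPM (next 316.4 CPM).

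In testis, FBP2 was at 42.4 CPM in high androstenone testis 2 and at 29.0 CPM in low androstenone testis 5, the 2 samples that also had the highest FBP1 of their groups. ACLY was at 36.0 CPM in low androstenone testis 2, LPIN1 at 86.5 CPM in high androstenone testis 4 and NR1H3 at 3.25 CPM in high androstenone testis 1.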

How the results depend on the processing

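Between tissues, 3577 IDs were called higher with total counts alone, against 6143. DESeq2 called 52 IDs in testis and 2 for the interaction, against 0 with edgeR. For pairs of genes over the livers, 1 pair passed by Pearson's r with total counts alone, against 0, and 0 passed by Spearman's rho with median-ratio scaling, total counts alone or factors over 20 samples (chosen after seeing the data), against 2. Without 1 library, 14270 to 14434 IDs and 4 to 5 of the 5 genes were called between tissues (ME1 being the fifth). High against low called 0 IDs in liver and 0 to 2 in testis, 2 without low androstenone testis 5, and none of the 5 genes. The interaction called 0. Single-gene permutation tests under 0.05 numbered 0 to 1, pairs passing by Pearson's r 0 to 4 (4 without low androstenone liver 5) and by rho 0 to 3 (3 without high androstenone liver 1). The cause was not tested.

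The sign turned between tissues for SCD (-0.037) with total counts alone. Without single libraries, signs turned for small differences: FBP1, ACACA and SCD between groups in testis (-0.49 to 0.43, -0.028 to 0.17 and -0.12 to 0.13), FBP1 in liver (-0.12 to 0.41), the interaction of FBP1 (-0.33 to 0.59) and of ME1 (-0.59 to 0.088), and r of ACACA and ME1 (-0.081 to 0.21). In the permutation test the differences of log2(CPM + 0.5) ranged from -0.25 to 0.39 for FBP1, -0.00071 to 0.18 for ACACA and -0.082 to 0.14 for SCD in testis, and from -0.20 to 0.39 for FBP1 and -0.036 to 0.48 for PCK1 in liver.

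Same-numbered samples correlated over 0.1 in 2 or 3 of 5 pairs of each set of groups, and at most 2 of 5 correlated best with their own number, so the numbers were not taken as pairs. With the replicate number as a block, 14201 IDs and 5 of the 5 genes were called between tissues, ME1 now passing at -0.64 (adjusted p = 0.0239). High against low called 0 IDs in each tissue and the interaction 0, and FBP1 in testis turned to 0.023.

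Depth limits PCK1 in testis (0 to 2 counts per library), ME1 (5 to 35 per liver) and FBP1 in testis (10 to 141).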
